A study of Mus musculus with 6 samples.

Results

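The genes described here are the zinc finger genes that carry a Zfp symbol. They were taken as all rows of the authors' deposited table whose identifier is Zfp followed by a digit, leaving out Zfp36 and its relatives Zfp36l1, Zfp36l2 and Zfp36l3, which bind RNA through another type of finger. This gave 279 rows of 29209. Of these, 266 were tested by the authors and 13 were not (Zfp42, Zfp179, Zfp185, Zfp206, Zfp352, Zfp454, Zfp474, Zfp533, Zfp541, Zfp641, Zfp694, Zfp804a and Zfp819).

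The series measured RNA in 6 samples of tumours grown under the skin of NCr nude mice, hosts that lack a thymus but keep their own myeloid, stromal and vessel cells. The tumours arose from spleen cells of diseased mir-155LSLtTA mice, which carry a miR-155 transgene that doxycycline (DOX) turns off. Hosts of 3 samples were fed DOX, 2.3 mg per kg of chow, over the last 16 hours, which withdraws miR-155. Hosts of the other 3 were not, so miR-155 stayed overexpressed. All 6 tumours carry the transgene, and no DOX-treated tumour without it was compared, so an effect of DOX itself and of miR-155 loss cannot be told apart. The labels do not tie the samples to separate animals, so the spread behind the p-values could be technical. The authors' deposited table gives, for each row, a ratio between both groups with an unadjusted and an adjusted p, and no value per sample, no group level, no standard error and no depth. The ratio was read as DOX over no DOX, so that "higher" means higher after miR-155 withdrawal. Which group is the numerator is nowhere stated in the sources used here, and every direction below turns if it is the other way. A row was called at an adjusted p under 0.05.

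Most Zfp genes encode proteins with C2H2 fingers, short loops in which a pair of cysteines and a pair of histidines hold a zinc ion and which read DNA, each finger contacting a few bases. The largest subgroup begins with a KRAB domain, which binds TRIM28 (also KAP1). TRIM28 in turn brings the histone methyltransferase SETDB1, HP1 proteins and DNA methylation, and many KRAB zinc finger proteins silence retroelements in this way. These genes have multiplied by tandem duplication and lie in clusters of close relatives. The symbol Zfp was also given early to genes of other kinds, including ubiquitin ligases now named Rnf114, Rnf115, Ltn1 and Ubr3. In 22 of the 276 protein-coding Zfp rows the current symbol is no longer Zfp.

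More zinc finger genes were called higher after withdrawal than lower. The authors' deposited table calls 32 of the 266 tested members higher (12%) and 4 lower (1.5%), the 4 including Zfp202, whose second row goes the other way. Over all 18543 tested rows it calls 5.72% higher and 5.61% lower, so the members' share of higher calls was above the background and their share of lower calls was below it. Of the 255 members with a finite ratio, 192 (75.3%) had a ratio above 1, against 55.9% of all tested rows with a finite ratio. The median log2 fold was 0.56 (quartiles 0.03 and 1.33), against 0.17 (quartiles -0.61 and 1.18) over all tested rows. The 31 higher members with a finite ratio ran from 1.22 to 5.55 on the log2 scale, with a median of 1.85. At an unadjusted p under 0.05 by the authors' DESeq test, 11.9% of all tested rows stood higher and 10.4% lower, the background for each count at that threshold below. In 9 tested members the ratio was listed as Inf and in 2 as 0, and no fold is given for these.

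**Figure D1:**
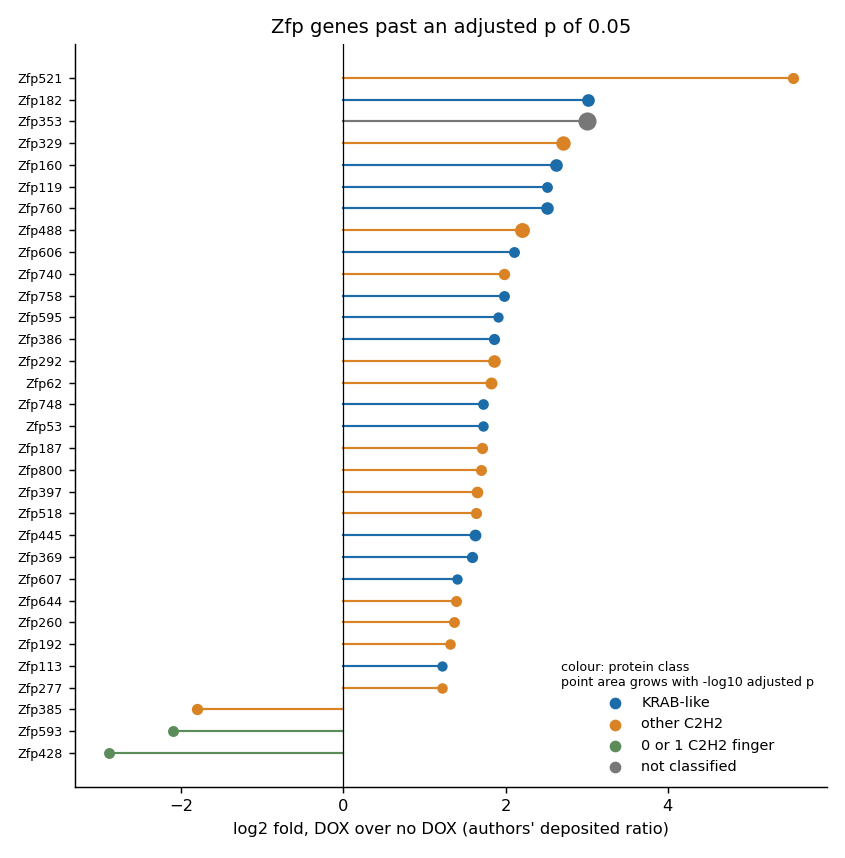
Log2 fold (DOX over no DOX, horizontal axis) of the called Zfp genes named here that have a finite ratio in the authors' deposited table, 1 line per gene, coloured by protein class, with point area growing with -log10 of the adjusted p. The 29 higher genes drawn reach from 1.22 to 5.55 and the 3 lower genes from -2.89 to -1.80.

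The smallest adjusted p among the members belonged to Zfp353, whose log2 fold in the authors' deposited table was 3.00 (adjusted p = 5.68e-12). The reference annotation lists it as a pseudogene (Zfp353-ps), so no protein class is given for it. Next came Zfp488, a transcriptional cofactor known from oligodendrocyte differentiation, at 2.20 (adjusted p = 3.59e-07 in the authors' deposited table). Zfp329, a C2H2 gene, stood in the authors' deposited table at 2.71 (adjusted p = 1.7e-06). These 3 were the members that also passed a Bonferroni adjustment over all tested rows.

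Behind them came Zfp182 at 3.01 (adjusted p = 0.000193) and Zfp160 at 2.62 (0.000211), again by the authors' deposited table. Zfp292, a large nuclear protein first described as an activator of the growth hormone gene, had 1.86 on the log2 scale by the authors' deposited table (adjusted p = 0.000259). Zfp760 followed with 2.51 in the authors' deposited table (adjusted p = 0.000273). Zfp462, a chromatin factor of the early embryo and nervous system, was called higher in the authors' deposited table with a ratio listed as Inf (adjusted p = 0.000471). Zfp62, Zfp445 and Zfp397 had the largest adjusted p of the 12 members ranked first by it. The authors' deposited table gives log2 folds of 1.81, 1.63 and 1.65 for these 3, with adjusted p-values of 0.00121, 0.00164 and 0.00253.

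The highest finite fold among called members was that of Zfp521, at 5.55 on the log2 scale in the authors' deposited table (adjusted p = 0.00725). Zfp521 (also Evi3) is a cofactor of stem and early B-lineage cells that binds EBF1. Further down the call list, the authors' deposited table has Zfp119 at 2.52 (adjusted p = 0.0154), one of only 2 members whose description names a KRAB protein. In 90 of the 279 rows the description says zinc finger without the type, and in 187 it is only an identifier, so the description could not separate the types.

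The threshold divides members with near values. Just inside it, the authors' deposited table has Zfp607 at 1.40 (adjusted p = 0.0374), Zfp113 at 1.22 (0.0456) and Zfp595 at 1.90 (0.0459). Just outside it are Zfp157 at 1.52 (0.0642), Zfp101 at 1.97 (0.0715) and Zfp238, now Zbtb18, at 1.07 (0.0735), by the authors' deposited table.

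Only 4 members were called lower in the authors' deposited table, and 3 of them encode proteins with few C2H2 fingers. Zfp428, with 1 finger in a protein of 189 residues, had a log2 fold of -2.89 (adjusted p = 0.0128 in the authors' deposited table). Zfp593, with 1 finger in 134 residues, is the relative of a yeast factor of large ribosomal subunit assembly, and the authors' deposited table lists it at -2.10 (adjusted p = 0.0117). Zfp385, now Zfp385a, has 3 fingers, binds RNA and modifies target choice by p53. Its log2 fold in the authors' deposited table was -1.80 (adjusted p = 0.00499). The remaining member is Zfp202, a protein of 641 residues with 8 fingers, whose ratio is listed as 0 (adjusted p = 0.00403 in the authors' deposited table). The same gene stands a second time in the authors' deposited table, as Znf202, with a ratio listed as Inf and called higher (adjusted p = 0.0115). These rows go in opposite directions for 1 gene, so no direction is given here for Zfp202.

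Zfp365, the lowest finite fold of all members, was not called: the authors' deposited table gives -2.96 on the log2 scale with an adjusted p of 0.134.

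Members were then sorted by protein type, which the ratio had no part in. Fingers were counted in the translation of each gene's longest complete coding sequence by the pattern C-X2,4-C-X12-H-X2,6-H. A protein was called KRAB-like where at most 3 of 11 key letters of the KRAB A box differed and at least 2 fingers were found. This gave 120 KRAB-like members, 132 other C2H2 members with at least 2 fingers, 23 members with 0 or 1 finger and 4 without a class. The pattern can miss KRAB boxes. Zfp192 and Zfp167, now Zkscan8 and Zkscan7, carry symbols that stand for KRAB and SCAN domains but fell among the other C2H2 members. Zfp202, a row called lower, was placed there by the same pattern. The classes below are therefore those of the pattern alone.

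All called members that the pattern marked as KRAB-like were higher after withdrawal. By the authors' deposited table, 15 of 118 tested were called higher (12.7%) and 0 were called lower. At an unadjusted p under 0.05 by the authors' DESeq test, 36 of the 118 stood higher and 0 lower, against 11.9% and 10.4% of all tested rows. Their ratio was above 1 in 98 of 113 (86.7%), with a median log2 fold of 0.93 (quartiles 0.26 and 1.52) and a range from -1.45 to 3.45. Other C2H2 members were called higher as often, 15 of 125 (12%), with 2 called lower in the authors' deposited table. By DESeq, 22 of these 125 stood higher and 2 lower at an unadjusted p under 0.05. Their median was 0.38, and 83 of 120 (69.2%) had a ratio above 1. Among the 19 tested members with 0 or 1 finger, the authors' deposited table calls 0 higher and 2 lower (Zfp428 and Zfp593). At an unadjusted p under 0.05 by DESeq, 1 of these 19 stood higher and 3 lower. Their median was -0.22, and 8 of 19 had a ratio above 1. The share called higher at the adjusted threshold was therefore about the same in both C2H2 classes. The median and the share standing higher at the unadjusted threshold were larger in the KRAB-like class. No test of the difference between the classes was run, because genes are not replicates of the condition.

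**Figure D2:**
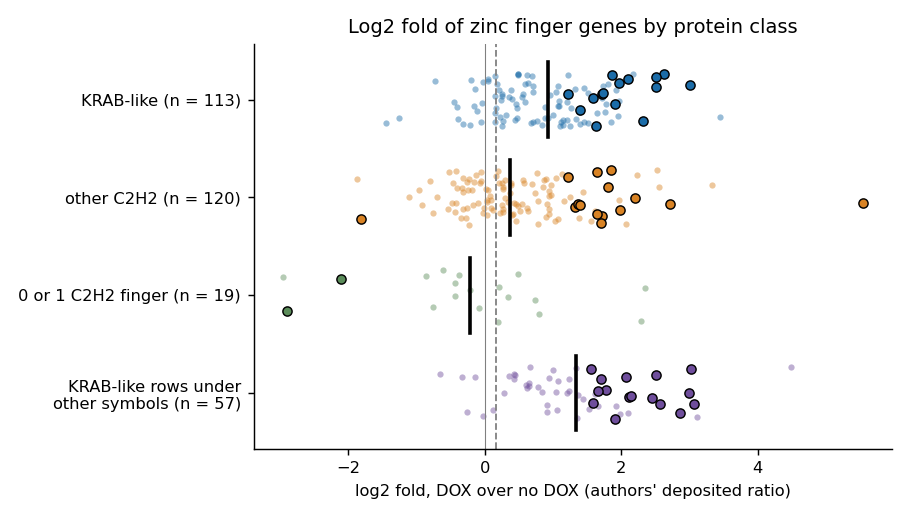
Log2 fold (DOX over no DOX, horizontal axis) of each tested gene with a finite ratio by protein class (vertical axis), 1 point per gene, with called genes outlined. The KRAB-like genes with Zfp symbols centre on 0.93, the other C2H2 genes on 0.38 and the genes with 0 or 1 finger on -0.22.

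The medians by number of fingers followed the same order. Median log2 folds were -0.22 for 0 or 1 finger (19 tested), 0.19 for 2 to 5 (44 tested), 0.55 for 6 to 10 (75 tested), 0.71 for 11 to 15 (83 tested) and 1.06 for 16 or more (41 tested). Across the 252 members with a finite ratio and a reference transcript, Spearman's rho between fingers and log2 fold was 0.32. Within a class it was lower, 0.28 in KRAB-like members (113 genes) and 0.14 in other C2H2 members (120 genes). Median GC content of the transcript also differed, at 48.6% for 2 to 5 fingers and 43.7% for 16 or more. The part of class and of GC content in the order by fingers was not tested. These correlations are across genes, which are not independent and share the libraries behind every ratio.

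The Zfp symbol covers only some of the KRAB-like zinc finger genes of the table. A further 65 rows, most under clone names, encode KRAB-like proteins with at least 2 fingers, and 49 of them now have a Zfp symbol. Some are second rows of members, such as KRAZ1 for Zfp53 and mKIAA4205 for Zfp386, so a gene can be counted more than once. By the authors' deposited table, 17 of the 62 tested (27.4%) were called higher and 0 lower, with 28 higher and 0 lower at an unadjusted p under 0.05 by DESeq (11.9% and 10.4% of all tested rows). Their median log2 fold was 1.33, and 52 of 57 had a ratio above 1. Together with the Zfp rows this made 185 KRAB-like zinc finger rows, of which 180 were tested, 32 called higher and 0 lower (64 higher and 0 lower at an unadjusted p under 0.05 by DESeq), with a median of 1.08.

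Base composition of the transcript moved with these differences. Across the 252 members, Spearman's rho between log2 fold and the GC content of the longest coding transcript was -0.63. It was -0.69 within the KRAB-like members (113 genes) and -0.57 within the other C2H2 members (120 genes). Over 12788 rows that are not members it was -0.23. The correlation with transcript length was 0.21 for members and 0.28 for the other rows. Transcript GC and length were not among the features planned, which named promoter GC and CpG count instead. Over 205 members with a promoter, rho with log2 fold was -0.27 for promoter GC and -0.26 for CpG count. Within the KRAB-like members (96 genes) it was -0.12 and -0.16. All these correlations are descriptions across genes that share the same 6 libraries.

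Divided at the terciles of GC over the members, the lowest range (35.4 to 43.6% GC) held 23 of the 30 higher members with a transcript. By the authors' deposited table, 23 of 88 members there were called higher (26.1%) and 0 lower (45 higher and 0 lower at an unadjusted p under 0.05 by DESeq), with a median log2 fold of 1.39. The middle range had 6 higher and 1 lower of 89 and a median of 0.49. The highest range (50.7 to 68.7% GC) had 1 higher and 3 lower of 85 and a median of -0.05, by the authors' deposited table. Rows that are not members showed the same order at the same limits: 12.6% of 2263 were called higher in the lowest range, 5.75% of 5203 in the middle and 2.15% of 7026 in the highest, with medians of 0.69, 0.11 and -0.21. Their shares called lower were 1.9%, 5.86% and 8.75%, so in the highest range the members' share called lower, 3.53%, was below that of the other rows.

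Within a GC range the medians of both C2H2 classes differed by less than without that division. In the lowest range the median was 1.40 for KRAB-like members (59 tested) and 1.39 for the other C2H2 members (26 tested). In the middle range it was 0.57 (42 tested) and 0.38 (40 tested), and in the highest 0.14 (17 tested) and 0.01 (59 tested). The calls were less alike: in the lowest range the authors' deposited table calls 13 of 59 KRAB-like members higher (22%) and 10 of 26 other C2H2 members (38.5%). The classes differ in composition, with a median GC of 43.6% in KRAB-like members and 50.2% in the other C2H2 members. The KRAB-like rows under other symbols had the lowest median GC, 40.5%. The part of GC content, of RNA quality or of library preparation in these ratios was not tested, and the table gives no value per library with which to do so.

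**Figure D3:**
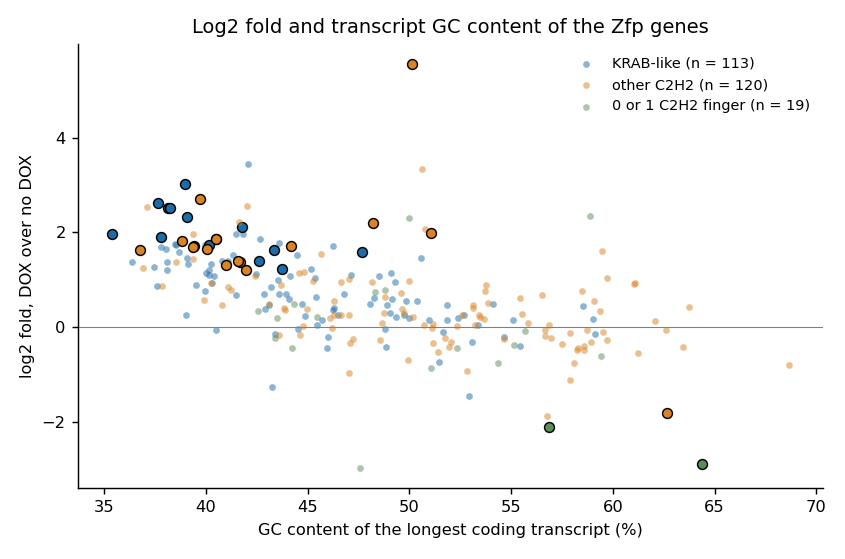
GC content of the longest coding transcript (horizontal axis, %) against log2 fold (DOX over no DOX, vertical axis) for each Zfp gene with a finite ratio, coloured by protein class, with called genes outlined. The points slope downward, with a Spearman's rho of -0.63 over the 252 members, and called higher genes lie between 35.4 and 51.0% GC.

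Neighbouring genes of the tandem families were followed along the chromosomes, in the order of the reference annotation. A run was taken as Zfp members with at most 3 other protein-coding genes between neighbours. There were 8 runs of 5 or more, holding 67 members, of which 56 were KRAB-like. By the authors' deposited table, 7 of these 67 were called higher and 0 lower (10 higher and 0 lower at an unadjusted p under 0.05 by DESeq, where 11.9% and 10.4% of all tested rows stood), with a median log2 fold of 0.54. The 10 of 67 at the unadjusted threshold lay near that background. The 199 tested members outside runs had 25 higher, 4 lower and a median of 0.56, about the same median as in the runs. At the adjusted threshold, the share called higher was 10.4% in runs and 12.6% outside, against 5.72% of all tested rows.

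The runs differed from one another. On chromosome 13, the 14 members from Zfp708 to Zfp273 were all KRAB-like, and all 14 had a ratio above 1, with a median log2 fold of 1.52. The authors' deposited table calls 3 of them higher, among them Zfp748 and Zfp595. On chromosome 17, the 7 members from Zfp677 to Zfp820 were also all KRAB-like and all above 1, between 1.15 and 2.51, with a median of 1.72. Zfp760 and Zfp53 were called higher there in the authors' deposited table, though a second row of Zfp53, KRAZ1, was at -0.25 and not called. On chromosome 7, the 12 members from Zfp84 to Zfp146 all had a ratio above 1 with a lower median, 0.63, and 1 was called (Zfp260). The 6 members from Zfp786 to Zfp467 on chromosome 6 had a median of -0.30, and 1 of 6 was above 1. These runs also differ in composition, with a median GC of 39.0%, 38.5%, 48.2% and 55.0% in the order given. The other 4 runs, all on chromosome 7, did not keep that order: median GC and median log2 fold were 44.8% and 0.17 from Zfp787 to Zfp28, 46.5% and 0.26 from Zfp329 to Zfp446, 49.2% and 0.21 from Zfp180 to Zfp94, and 58.6% and 0.11 from Zfp553 to Zfp689. Members of a run are close relatives, and where they share sequence the division of reads among them by the authors' counting is uncertain.

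**Figure D4:**
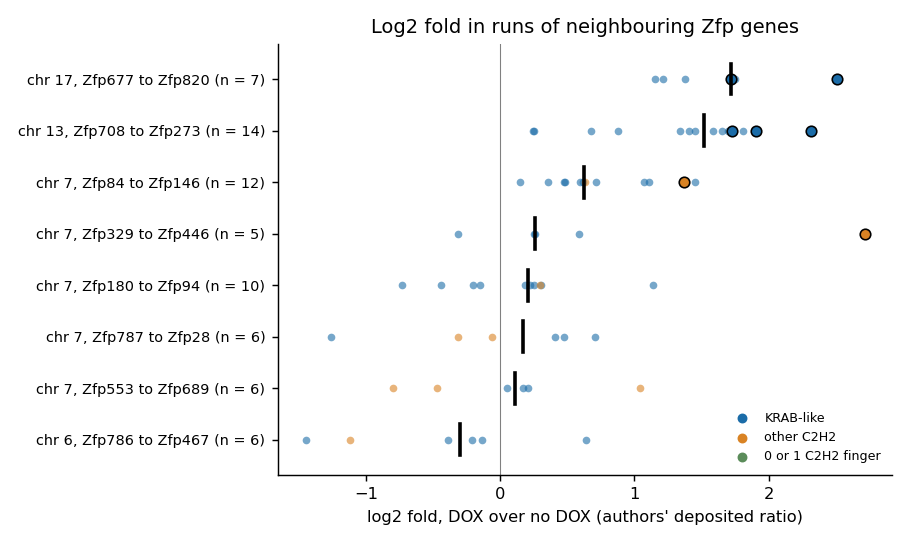
Log2 fold (DOX over no DOX, horizontal axis) of the members of 8 runs of neighbouring Zfp genes (vertical axis), 1 point per gene with a finite ratio, coloured by protein class, with called genes outlined. The chromosome 13 run from Zfp708 and the chromosome 17 run from Zfp677 lie wholly above 0, and the chromosome 6 run from Zfp786 has 1 gene above 0.

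By chromosome, the 71 members on chromosome 7, the largest set, had 4 higher and 1 lower of 68 tested and a median of 0.26 in the authors' deposited table. Its share called higher, 5.88%, lay near the 5.72% of all tested rows, and its share called lower was 1.47% against 5.61%. The shares called higher on chromosomes 17 and 13 were 23.1% and 25%. The 27 on chromosome 17 had 6 higher and 0 lower of 26 tested, and the 24 on chromosome 13 had 6 higher and 0 lower of 24, with medians of 1.26 and 1.43. At an unadjusted p under 0.05 by DESeq, 0 of these chromosome 17 and chromosome 13 members stood lower (10.4% of all tested rows did), and 10 and 8 stood higher (11.9% of all tested rows did).

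Among members with a known part in silencing retroelements or imprints, 1 of 5 tested was called higher (20%), against 5.72% of all tested rows. The called member was Zfp445, which helps Zfp57 keep imprints, at 1.63. The others did not pass: by the authors' deposited table Zfp568, which binds the placental promoter of Igf2, was at 1.11 (adjusted p = 0.239), Zfp809, which recognises the primer binding site of murine leukaemia virus proviruses, at 1.23 (0.156) and Zfp708, which binds a class of retroviral repeats, at 1.70 (0.472). Zfp57 had a ratio of Inf (adjusted p = 0.855 in the authors' deposited table). Zfp819 was not tested, and Zfp932 is listed under a clone name at 1.66, called higher with an adjusted p of 0.0266 in the authors' deposited table.

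Of the members tied to lymphoid or other blood cells, 9 were tested, 1 was called higher (Zfp521) and 1 lower (Zfp385). That is 11.1% in each direction, against 5.72% and 5.61% of all tested rows. The other 7 were not called in the authors' deposited table: Zfp608 at 0.79 (adjusted p = 0.158), Zfp318, a regulator of IgD expression, at 0.38 (0.786), Zfp335 at 0.34 (0.763), Zfp384 at 0.25 (0.870), Zfp91 at 0.09 (1), Zfp423, a relative of Zfp521 that also binds EBF1, at -0.06 (1) and Zfp64 at -0.47 (0.644). Zfp521 and Zfp423 thus stood far apart. Zfp131 and Zfp683 were not found among the rows.

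Among the 4 tested members of the early embryo or pluripotency, Zfp353 was called higher (25%, against 5.72% of all tested rows). The other 3 were not called, and the authors' deposited table gives 1.61 for Zfp296 (adjusted p = 0.467), 0.49 for Zfp281 (0.692) and 0.02 for Zfp143 (1). Zfp42, the pluripotency marker also called Rex1, was not tested, nor were Zfp206 and Zfp352.

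Members that act on RNA, ribosomes or translation gave 1 higher and 1 lower of 10 (10% each, against 5.72% and 5.61% of all tested rows). The lower one was Zfp593. The higher one was Zfp277, at 1.22 in the authors' deposited table (adjusted p = 0.0288). Not called in the authors' deposited table were Zfp259, now Zpr1, at -0.86 (adjusted p = 0.265), Zfp598, the ubiquitin ligase that marks collided ribosomes, at -0.61 (0.489), Zfp207, a spindle and splicing factor, at 0.41 (0.686), Zfp106 at -0.33 (0.813), Zfp706 at -0.22 (0.884) and Zfp326 at 0.20 (0.857). A second row of Zfp326, listed as Znf326, was called higher in the authors' deposited table. Zfp622 at 0.08 and Zfp346 at 0.03 in the authors' deposited table lay nearest to no difference. A further gene of this list, Zfp638, stands in the authors' deposited table as Znf638 at 2.28 and was called higher (adjusted p = 0.0146). Zfp830, listed as Ccdc16, was at 0.39 in the authors' deposited table (adjusted p = 0.852).

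Transcription regulators outside the KRAB type gave 3 higher (21.4%) and 0 lower of 14, against 5.72% and 5.61% of all tested rows. At an unadjusted p under 0.05 by DESeq, 4 stood higher and 0 lower, against 11.9% and 10.4% of all tested rows. The 3 called were Zfp292, Zfp462 and Zfp260, an effector of adrenergic signals in heart muscle, at 1.37 in the authors' deposited table (adjusted p = 0.0135). Of the rest, the authors' deposited table puts Zfp503 at 2.35 (adjusted p = 0.632), Zfp750, a regulator of epidermal differentiation, at 2.30 (0.242), Zfp516 at 0.90 (0.911), Zfp451, a SUMO ligase, at 0.85 (0.244), Zfp410, an activator of Chd4, at 0.73 (0.395) and Zfp148 at 0.57 (0.335). Folds above 2 that miss the threshold, as for Zfp503 and Zfp750, show that the size of a ratio alone did not set the call. Lower values in the authors' deposited table were 0.13 for Zfp219, -0.02 for Zfp161, -0.23 for Zfp217 and -1.11 for Zfp467 (adjusted p = 0.240). Zfp746 was placed on this list too, but its row, Znf746, encodes a KRAB-like protein by the pattern used here and is counted with those above. It was at -0.02 in the authors' deposited table.

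The partners through which KRAB zinc finger proteins act were called lower more often than higher. Of 30 corepressor and heterochromatin genes, 29 were tested, and the authors' deposited table calls 10 lower (34.5%, against 5.61% of all tested rows) and 2 higher (6.90%, against 5.72%). Their median log2 fold was -0.54, and 8 of 29 had a ratio above 1. Trim28 itself, the corepressor that KRAB domains bind, fell by 1.56 on the log2 scale in the authors' deposited table (adjusted p = 0.00402). Cbx5, which encodes the HP1 alpha reader of methylated histone H3, was at -1.22 (adjusted p = 0.00226), and Suv39h1, a histone H3 methyltransferase, was at -1.37 (0.00637), both by the authors' deposited table. The other 17 tested partners were not called. Among them in the authors' deposited table were Setdb1 at -0.15 (adjusted p = 1) and the HP1 genes Cbx1 at -0.30 (0.833) and Cbx3 at -0.59 (0.339). Those above 0 included Atf7ip at 0.50 (0.333), Mphosph8 at 0.80 (0.545), Morc3 at 1.08 (0.0823) and Smarcad1 at 1.18 (0.0739). Suv39h2, a relative of Suv39h1, had the largest ratio of the 29, at 1.83 in the authors' deposited table (adjusted p = 0.131). It thus stood opposite to Suv39h1.

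The maintenance DNA methyltransferase Dnmt1 and its recruiter Uhrf1 were lower in the authors' deposited table at -1.87 (adjusted p = 0.000116) and -1.84 (0.00367). In the histone deacetylase complex NuRD, the authors' deposited table has Hdac1 at -1.39 (adjusted p = 0.00402), Rbbp7 at -1.77 (0.000436), Rbbp4 at -1.13 (0.0190), Mta1 at -1.24 (0.00948) and Mbd3 at -1.17 (0.0380). Several of these, among them Dnmt1, Uhrf1 and Rbbp7, are known also as genes of DNA replication, so their list is not one of TRIM28 partners alone. Not every NuRD gene on the list was called. Chd4 at -0.75, Mta2 at -0.66, Chd3 at -0.38 and Hdac2 at -0.35 lay below 0 but missed the threshold. The 2 higher partners in the authors' deposited table were Smarca4, the ATPase of a chromatin remodeller, at 1.5 (adjusted p = 0.000591) and Resf1, a factor of retroelement silencing listed under a clone name, at 1.65 (0.00179).

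**Figure D5:**
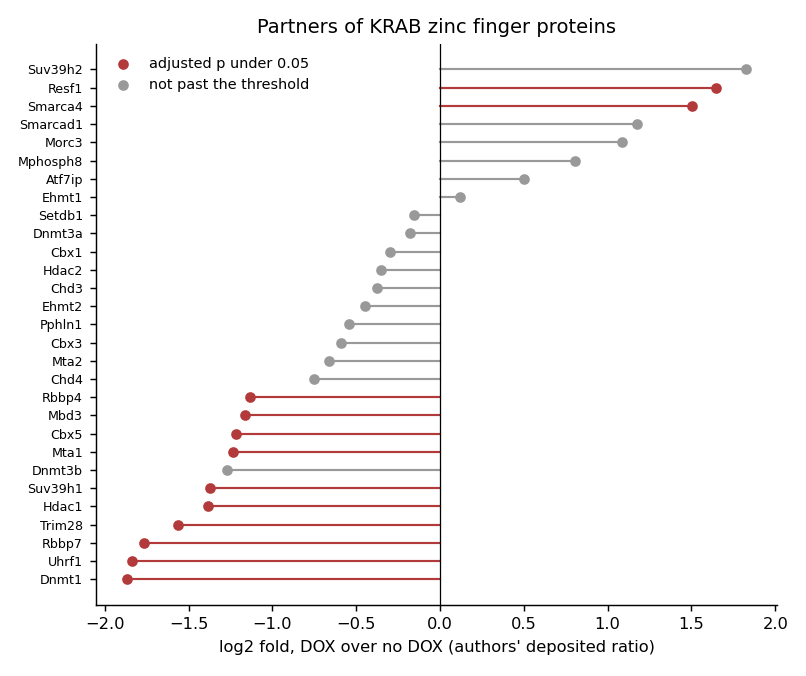
Log2 fold (DOX over no DOX, horizontal axis) of each tested corepressor or heterochromatin gene in the authors' deposited table, 1 line per gene, with genes past an adjusted p of 0.05 in red and the others in grey. Of the red genes, 10 lie left of 0, from -1.87 to -1.13, and 2 lie right of it.

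Other zinc finger families of the table were set beside the Zfp genes. They were taken by symbol alone, which lets in genes of another type, such as Zbtb8os and Zc3hc1. By the authors' deposited table, 2 of 33 Zbtb genes were called higher and 0 lower (10 higher and 0 lower at an unadjusted p under 0.05 by DESeq, against 11.9% and 10.4% of all tested rows), a share of higher calls near the 5.72% background, with a median of 0.35: Zbtb20 at 2.30 (adjusted p = 0.00595) and Zbtb26 at 1.54 (0.0391). The Zscan and Zkscan genes, whose SCAN domain pairs proteins, had 1 higher and 0 lower of 12 and a median of 0.38, the called gene being Zkscan3 at 1.31 (adjusted p = 0.0171 in the authors' deposited table). Genes of the Zc3h series, mostly of the CCCH type, had 2 higher and 0 lower of 17 and a median of 0.16. Those called were Zc3h7a at 1.57 (adjusted p = 0.00368) and Zc3h11a at 1.28 (0.00487) in the authors' deposited table. The Zdhhc genes, membrane palmitoyltransferases with a DHHC finger, had 0 higher and 1 lower of 20 and a median of -0.49. The called gene was Zdhhc3 at -1.53 (adjusted p = 0.0437 in the authors' deposited table). For rows matching Klf or Sp followed by a number, the median was 0.88 over the 20 of 26 tested with a finite ratio. The 1 called was Sp100 at 1.47 (adjusted p = 0.0253 in the authors' deposited table). Sp100, Sp110 and Sp140 match the pattern but are nuclear body proteins and not Sp factors. Shares called higher were 8.33% for Zscan and Zkscan, 11.8% for Zc3h and 3.85% for Klf and Sp rows, beside the 5.72% background. The Zdhhc share called lower, 5.0%, was near the 5.61% of all tested rows.

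Since miR-155 was withdrawn, matches to its seed in the 3' UTRs of the members were counted. A microRNA binds mostly through bases 2 to 8 of its mature strand, and its targets carry the complement. The mature sequence from RefSeq (GRCm38.p6) is shown with those bases in capitals:

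mmu-miR-155-5p: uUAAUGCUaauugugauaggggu

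The motifs searched, on the transcript strand alone, were AGCATTA and GCATTAA, which overlap in AGCATTAA. Of 262 tested members with an annotated 3' UTR, 46 (17.6%) held at least 1 match, against 13.5% of 14073 tested rows. Members called higher held one in 10 of 30 (33.3%), members not called in 36 of 228 (15.8%) and members called lower in 0 of 4. Over all tested rows with a 3' UTR the order was the same: 190 of 748 called higher (25.4%) and 80 of 964 called lower (8.3%) held a match. By class, 14 of 118 KRAB-like members (11.9%) and 28 of 125 other C2H2 members (22.4%) held a match. Members with a match had a median 3' UTR length of 2894 bases and a GC content of 44.3%, against 1264 bases and 47.6% without. Their median log2 folds were 0.72 and 0.49, and over all rows the same medians were 0.43 and -0.01. Among the 30 members called higher the order was the other way, 1.63 with a match and 1.86 without. UTR length and GC thus moved with the match, and their part was not tested.

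The matches in 4 of the higher members show how the sites look, each as 26 bases of a GENCODE M21 transcript (GRCm38), 5' to 3', with the matched bases in capitals. Zfp488 and Zfp329, with the smallest adjusted p of the protein-coding members, each hold a pair, Zfp518 (now Zfp518a) holds 3, and Zfp445 holds 1:

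Zfp488 first: aatatgtttagtcatGCATTAAagtg
Zfp488 second: cctggttgactgtgAGCATTAAgcat
Zfp329 first: agatattctataattGCATTAAcact
Zfp329 second: aaccataggtattcAGCATTAAtggt
Zfp518 first: aaaacagagaagcaAGCATTAAcgat
Zfp518 second: tttagttctctgcatGCATTAAtaaa
Zfp518 last: tttaaagaacggtaAGCATTAAtttc
Zfp445: ttgatctggacaggcAGCATTActcc

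Each of these members was called higher in the authors' deposited table, Zfp518 with a log2 fold of 1.64 (adjusted p = 0.00808). The other higher members with a match were Zfp187, Zfp644, Zfp606, Zfp260, Zfp277 and Zfp113. A match is a description of these letters and says nothing of binding.

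Markers of the cells a tumour can hold were read beside the members, because in bulk samples fewer cells of a type and less RNA per cell cannot be told apart. Of 8 B-lineage markers tested, the authors' deposited table calls 2 higher and 0 lower, with 5 of 8 above 1 and log2 folds from -4.12 (Ms4a1, not called) to 1.61 (Ebf1), around a median of 0.49. All 8 macrophage markers had a ratio above 1, between 0.79 and 3.30 on the log2 scale, with a median of 2.02 and 2 called higher in the authors' deposited table. All 7 fibroblast markers were above 1, between 0.13 and 3.74, with a median of 2.26 and 2 called higher in the authors' deposited table. Of 5 endothelial markers 0 were called higher and 1 lower, with a median of 0.89. Of the 4 T-cell markers tested 0 were called (1 at an unadjusted p under 0.05 by DESeq), with a median of 1.11. Shares called higher were 25%, 25% and 28.6% for B-lineage, macrophage and fibroblast markers, against 5.72% of all tested rows. The endothelial share called lower was 20%, against 5.61%. The table gives no level, so whether a marker was near 0 in a group is unknown. The part of host macrophages and fibroblasts in the higher ratios of zinc finger genes was not tested.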

How the data were processed

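RNA was measured in 6 tumour samples, 3 with and 3 without DOX. The submitters' processing notes name RSEM, DESeq and build mm9 without versions. Per the labels' protocols, total RNA was depleted of ribosomal RNA before library preparation. The deposited file holds the authors' comparison alone, as a linear ratio (fold change) and the authors' p-value and adjusted p-value. Depth and precision per sample are therefore unknown, and every test is the authors' own. The adjusted values equal a Benjamini-Hochberg adjustment over 18543 rows within 2.09e-06.

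Log2 folds were computed from the deposited ratio. Rows were matched to RefSeq by symbol (244), synonym (22) or accession (12), and 1 was unmatched. GENCODE M21 gave transcripts, proteins and 3' UTRs. For each gene the longest coding transcript, coding sequence and 3' UTR were chosen separately, so they can come from different transcripts. GENCODE M21 is GRCm38, not mm9, so no coordinates are given. Fingers and KRAB boxes were found with Python 3.11.15 and Biopython 1.88, tested on simulated data.

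Members and lists were chosen with earlier results of these data known. Named genes were the 12 members with the smallest adjusted p in each direction, the 5 most extreme called folds, tested role list members, called partners and family genes (at most 4 each), and the 3 on each side of the threshold. Uncalled partners, uncalled family genes and single markers were named after their values were seen. The same holds for Zfp365, Zfp644, Zfp606, Zfp748, Zfp53, second rows of a gene and higher members with a seed match outside that rule. Of the called members, 2 are counted but not reported by name here.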

Additional observations from a re-analysis of the deposited data

How the results depend on the processing

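No paired analysis was possible because the table holds no values per sample. For the same reason no replicate could be left out, and neither was run. The count of higher members went from 32 to 19 at an adjusted p under 0.01 and to 3 under a Bonferroni adjustment, and the count of lower members from 4 to 2 and 0 (6 lower at an unadjusted p under 0.05 by DESeq). Restricted to the 2 rows whose description names KRAB, 2 were higher, 0 lower and the median was 2.18. Alternatives chosen after seeing the data gave 15 higher and 0 lower (median 0.93) for KRAB-like members alone and 49 higher with KRAB-like rows of other symbols added (median 0.70). The fewer or added rows come from the construction of each alternative. Under the other alternatives the higher count lay between 30 and 38, the lower count between 3 and 4 and the median between 0.49 and 0.59. Without 2 pseudogene rows and 1 unmatched row, 30 were higher. Precision is limited by the 3 samples per group and the lack of values per sample.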

Other observations

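Some members stand in the authors' deposited table again under another identifier, 19 tested rows for 18 members, and 12 of these pairs had the same direction. Zfp326 was at 0.20 and not called, while Znf326, a second row of the same gene, was at 3.60 and called higher (adjusted p = 0.0135 in the authors' deposited table). Zfp740, called higher at 1.98, has a second row, Znf740, at -0.15 in the authors' deposited table (adjusted p = 1). Zfp53, called at 1.72, has a second row, KRAZ1, at -0.25 in the authors' deposited table (adjusted p = 1). Zfp386 is listed at 1.86 and, as mKIAA4205, at 1.92 in the authors' deposited table, where the first is called and the second is not (adjusted p = 0.00745 and 0.892).

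Promoters (250 bases before to 50 after the start, RefSeq, GRCm38.p6) were present for 211 tested members and searched on both strands. The E-box CACGTG was in 7.11% of them, against 9.65% of the promoters of 11503 tested rows. CCAAT was in 39.3% against 38.4%, the GC box GGGCGG in 46.0% against 60.4%, the ETS motif CCGGAAGT in 12.8% against 7.34% and TATAAA in 6.64% against 8.15%. In the 25 members called higher with a promoter the shares were 8.0%, 36%, 60%, 12% and 4.0% in the same order. A match is a description of these windows alone.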
